A study of Homo sapiens with 6 samples.

Results

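The hnRNP and SR splicing factors were taken as all probe sets carrying exactly 1 gene symbol that begins with HNRNP or U2AF, or that reads SRSF, PTBP, SF3A or SF3B with a number, TRA2A or TRA2B. These were 105 of the 22215 probe sets tested and 43 of the 11963 genes named by a probe set of 1 symbol. The hnRNP family held 49 probe sets of 19 genes, the SR and TRA2 proteins 32 of 11, SF3A and SF3B 15 of 8, U2AF 4 of 2 and PTBP 5 of 3. In all, 30 of the 43 genes were read by several probe sets, with 3.07 probe sets a gene on average, against 2.65 for the 4310 genes of the array that had several. A further 19 probe sets that carry such a symbol beside others were left out. Among them were every probe set of SRSF2, SRSF9 and HNRNPH2, most of those of PTBP1, and the brightest of HNRNPA1.

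The cells were SH-SY5Y, a human neuroblastoma line, held for 1 h in medium with 140 nM free bilirubin (Bf, the part of unconjugated bilirubin not bound to protein) or with 0.6% DMSO, its solvent. The groups, Bf 140 nM and DMSO 0.6%, had 3 arrays each, all of this single tumour line, from separate flasks described as biological replicates and numbered 1 to 3 in both groups. Labelled cRNA made from total RNA was hybridized to Affymetrix GeneChip expression arrays. The deposited values are normalized levels on a log scale whose base is not stated. They are read here as log2, so that a difference of 1 is about 2-fold at bright probe sets and less than the true fold near background. The comparison asks whether a short exposure to bilirubin changes RNA levels, here for these factors and for each of the probe sets that read the same gene.

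Splicing removes introns from nascent transcripts. hnRNP proteins coat that RNA and often cause exons to be skipped, while SR proteins and the related TRA2 proteins bind enhancer sequences in exons and favour their inclusion. U2AF marks the 3′ splice site, the SF3A and SF3B complexes fix the U2 particle at the branch point, and PTBP proteins repress exons through pyrimidine-rich sequence, with PTBP2 best known from neurons. Many of these factors splice their own transcripts into several forms, some of them unstable, and a probe set reads only the stretch of RNA its probes match. Probe sets of a gene may therefore measure different transcripts, and their levels also depend on the binding strength of their probes.

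Of 14 neuroblastoma marker genes with a probe set, 12 lay above the median of all probe sets, and TH and HAND2 did not. Markers of other cells lay above it in 4 of 14 genes. These were the mesenchymal markers COL1A1, COL3A1, DCN and LUM, with COL3A1 at percentile 87.3. The mesenchymal markers COL1A2 and POSTN and all blood, liver and epithelial markers lay below it. The replicate 3 arrays stood apart in both groups. They correlated at 0.961 to 0.977 with the other 4 arrays, which correlated with each other at 0.993 to 0.998. The 3′ probe set of the actin control exceeded its 5′ probe set by 1.49 log2 units on the Bf and 1.90 on the DMSO array of replicate 3, against 0.10 to 0.50 on the others. For GAPDH the excess was 1.03 and 1.15 on those arrays, against 0.20 to 0.25 on the others. The actin and GAPDH values moved with replicate 3, and their part in the results below was not tested.

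The splicing factors were bright on these arrays. Their median level was 10.97, at percentile 90.8 of all probe sets, and 95 of 105 lay above the overall median of 7.89. The median was 11.31 for hnRNP, 11.04 for SR and TRA2, 11.02 for SF3A and SF3B, 9.67 for U2AF and 8.08 for PTBP probe sets. The brightest was 213619_at of HNRNPH1, a protein that binds runs of guanines, with a mean of 13.33. The dimmest, at 5.89, was 206808_at of HNRNPA3P1, a pseudogene. In the SR family the brightest was 208672_s_at of SRSF3, the smallest SR protein, at 13.16, and the dimmest 210077_s_at of SRSF5 at 7.22. SF3B1, the subunit that holds the branch point, gave the brightest of its family at 12.44 (201071_x_at), and SF3B3 the dimmest at 8.44 (200688_at). U2AF1, the small subunit that recognizes the AG of the splice site, stood at 12.41 (202858_at). U2AF2, the large subunit, ran down to 7.31 in 214171_s_at. In the last family PTBP1, the widely expressed member, stood at 12.33 (211270_x_at), the neuronal PTBP2 at 9.12 and PTBP3 at 7.31 to 8.08. Levels of different probe sets are given as a description, since each has its own probes.

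**Figure D1:**
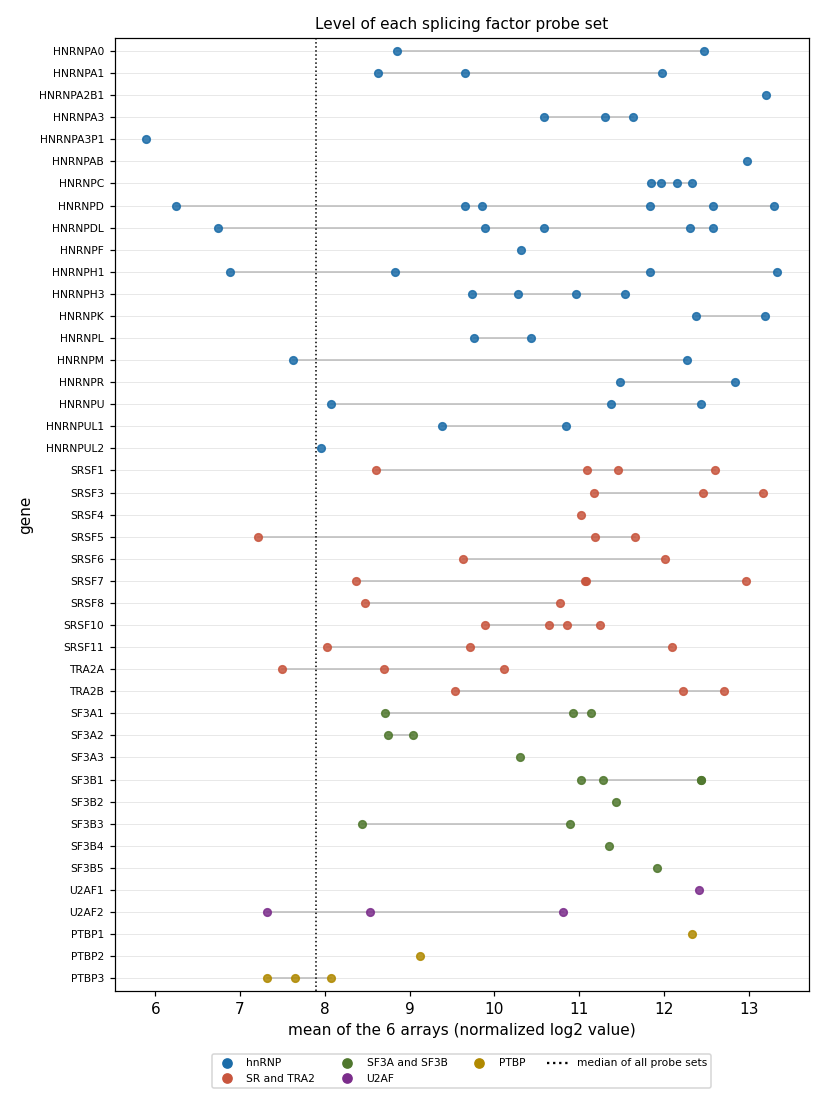
Mean level of each splicing factor probe set over the 6 arrays (x axis, normalized log2 value) by gene (y axis), coloured by family, with a grey line joining probe sets of a gene and a dotted line at the median of all probe sets, 7.89. Probe sets of HNRNPD span 7.05 log2 units, whereas the 4 of HNRNPC lie within 0.49.

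Probe sets of the same gene disagreed widely in level. The brightest and the dimmest were over 2 log2 units apart in 18 of 30 genes (60%), against 25% of the 4310 genes with several probe sets, which had fewer probe sets each on average. With only probe sets above the median level it was 15 of 28 (53.6%), against 17.5%, a restriction whose background shares, here and below, were added after the values were seen. Neither comparison matched genes by level. The splicing factors were brighter, with a median of 10.97 against 7.89 for all probe sets, and the part of level in these shares was not tested. Raising the threshold to 3 units left 13 of the 30 genes, and lowering it to 1 unit gave 25. The order in level within a gene was the same on all 6 arrays for all but 11 of 110 pairs (10%), against 19.3% of the 11661 pairs of the array that changed order.

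The widest gap belonged to HNRNPD, also called AUF1, which binds AU-rich elements and acts on mRNA decay. Its 221481_x_at read 13.36, 13.05 and 13.55 in Bf replicates 1 to 3, against 13.23, 13.02 and 13.58 in DMSO. Its 205183_at read 6.22, 6.31 and 6.15 in Bf, against 6.41, 6.32 and 6.05 in DMSO. The first stood at percentile 98.8 of all probe sets and the second at percentile 7.96, and no array brought them near each other. The other 4 probe sets of HNRNPD lay between, with means of 9.65 to 12.58. HNRNPH1 spanned 6.46 log2 units, with 213472_at at 6.88 as its dimmest. HNRNPDL, a close relative of HNRNPD, spanned 5.84, with 201993_x_at at 12.58 and 214379_at at 6.74.

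HNRNPM spanned 4.65 log2 units (200072_s_at over 214918_at) and HNRNPU, which also binds chromatin as a scaffold attachment factor, spanned 4.36 (200594_x_at over 216855_s_at). Among the SR proteins the gap was 4.60 for SRSF7, 4.44 for SRSF5, 4.07 for SRSF11 and 3.99 for SRSF1. SRSF7, known to accompany mRNA to the cytoplasm, was read at 12.97 by 214141_x_at and at 8.37 by 211439_at. Some genes were even. HNRNPC, which binds uridine tracts and is abundant in nuclei, spanned 0.49 over 4 probe sets, and SF3A2 0.30 over a pair.

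No splicing factor probe set passed the test of bilirubin against solvent. None of 105 reached a Benjamini-Hochberg adjusted p under 0.10 in limma, against 0 of 22215 in all (0%). The same counts, 0 of 105 and 0 of 22215, were found by SAM at an FDR of 10% and with the replicate number as a block. At an unadjusted limma p under 0.05 there were also 0 of 105, against 0.099% of all probe sets. Differences (Bf minus DMSO) ran between -0.21 and 0.29 log2 units with a median of 0.01, the same to 2 decimals as that of all probe sets. They were positive in 59 and negative in 46, against 12969 and 9246 of all probe sets, the same lean. The median half-width of the 95% confidence interval was 0.42 log2 units, and 92 of the 105 intervals lay within 1 log2 unit of 0. With the replicate block the half-width was 0.20, and all 105 lay within that bound. Changes smaller than these intervals, and some larger ones, could not be detected with 3 arrays a group. The intervals are not adjusted for the number of probe sets tested.

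**Figure D2:**
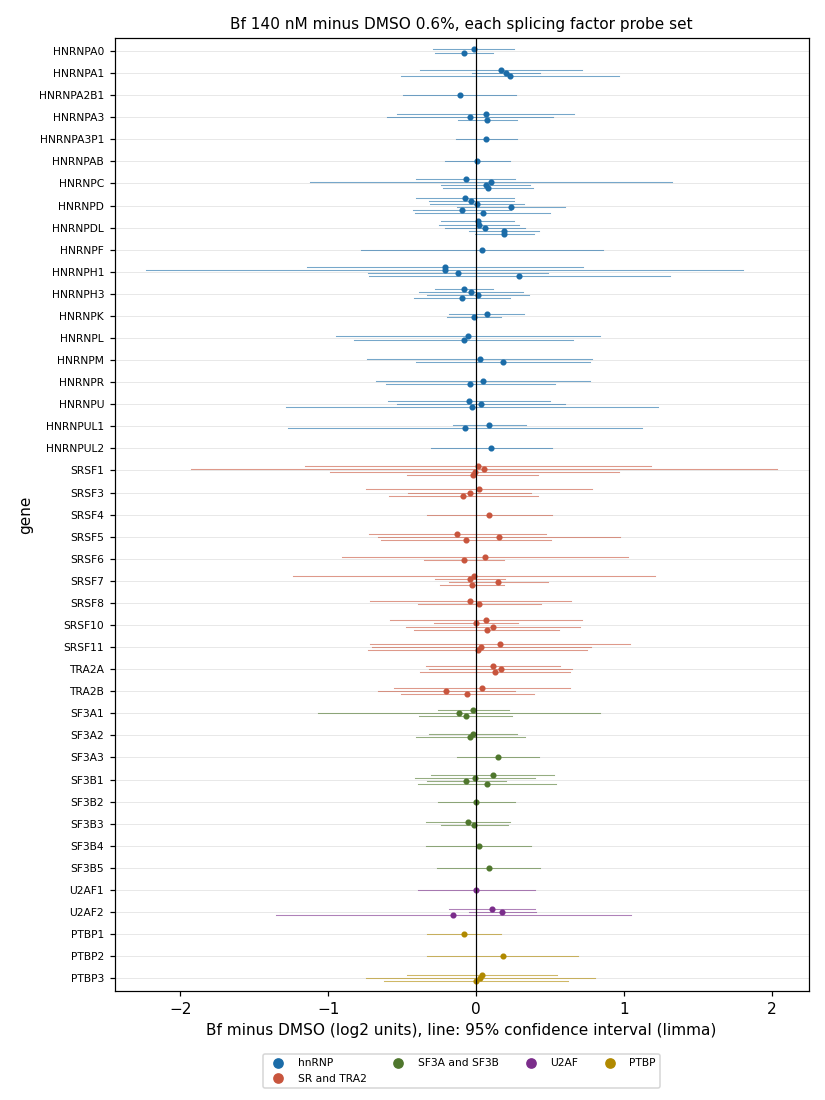
Bf 140 nM minus DMSO 0.6% for each of the 105 splicing factor probe sets (x axis, log2 units; points are differences of group means, lines the 95% confidence intervals of limma without a block), by gene (y axis) and coloured by family. All points lie between -0.21 and 0.29, and the widest intervals belong to probe sets of HNRNPH1 and SRSF1.

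Replicate by replicate, 11 of 105 probe sets (10.5%) were higher in Bf at all 3 numbers, against 11.8% of all probe sets, and 3 (2.86%) were lower at all 3, against 5.83%. The 3 Bf values lay wholly outside the 3 DMSO values in 4 probe sets (3.81%), against 2.65% of all. These shares were near those of the array. The 4 were all higher in Bf, as were 457 of the 588 such probe sets of the array. Those 4 were HNRNPDL 214379_at and 212454_x_at, HNRNPA1 221919_at and U2AF2 218381_s_at.

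HNRNPDL 214379_at, the dimmest of its gene, read 6.89, 6.87 and 6.75 in Bf replicates 1 to 3, against 6.62, 6.62 and 6.68 in DMSO. The groups did not overlap, with 0.06 between the nearest values, and the difference was 0.19 (95% interval -0.01 to 0.39, limma adjusted p 1.00). HNRNPDL 212454_x_at read 10.79, 10.64 and 10.60 in Bf, against 10.55, 10.54 and 10.37 in DMSO, again a difference of 0.19 (interval -0.05 to 0.43). The other probe sets of this gene differed less, by 0.01 for 201993_x_at, 0.02 for 209067_s_at and 0.06 for 209068_at, though no gap between probe sets of HNRNPDL passed.

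HNRNPA1, an abundant factor that opposes SR proteins at many exons, was positive in each of the 3 probe sets that carry its symbol alone. Its 221919_at read 8.83, 8.66 and 8.70 in Bf, against 8.49, 8.62 and 8.46 in DMSO, with 0.04 between the nearest values of the groups. The difference was 0.20 (interval -0.02 to 0.43). Its 214280_x_at differed by 0.17 and its 222040_at by 0.23, but both overlapped between groups. The values of 222040_at ran between 9.25 and 10.40 in Bf, against 9.34 to 9.85 in DMSO. HNRNPA1 probe sets left out for carrying further symbols were brighter and hardly differed. The difference was -0.009 in the one with a mean level of 14.04 and 0.011 in the one at 13.93. Among other hnRNP probe sets with small p, HNRNPD 213359_at differed by 0.24 (interval -0.13 to 0.60), with 0.44, -0.21 and 0.48 at the 3 numbers.

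On the negative side no difference was marked in this family. HNRNPH3, a close relative of HNRNPH1, gave -0.08 in 207127_s_at and -0.10 in 210588_x_at, each negative at all 3 numbers. HNRNPA0 201055_s_at gave -0.08. The third probe set that was lower at every number was HNRNPH1 201031_s_at, with 12.05, 12.09 and 11.05 in Bf, against 12.27, 12.27 and 11.29 in DMSO. Its difference was -0.21 (interval -1.14 to 0.72), and the groups overlapped because both replicate 3 values were about 1 log2 unit below the rest.

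With the replicate number as a block, an unadjusted p under 0.05 was reached by 3 probe sets that were higher (2.86%, against 0.941% of all) and 1 that was lower (0.952%, against 0.275%). Those that were higher were HNRNPDL 214379_at and 212454_x_at and HNRNPA1 221919_at. Their blocked intervals were 0.01 to 0.38, 0.01 to 0.37 and 0.01 to 0.40 in that order. The lower one was HNRNPH1 201031_s_at, with a blocked interval of -0.39 to -0.03. After adjustment each had a p of 1.00 in limma.

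**Figure D3:**
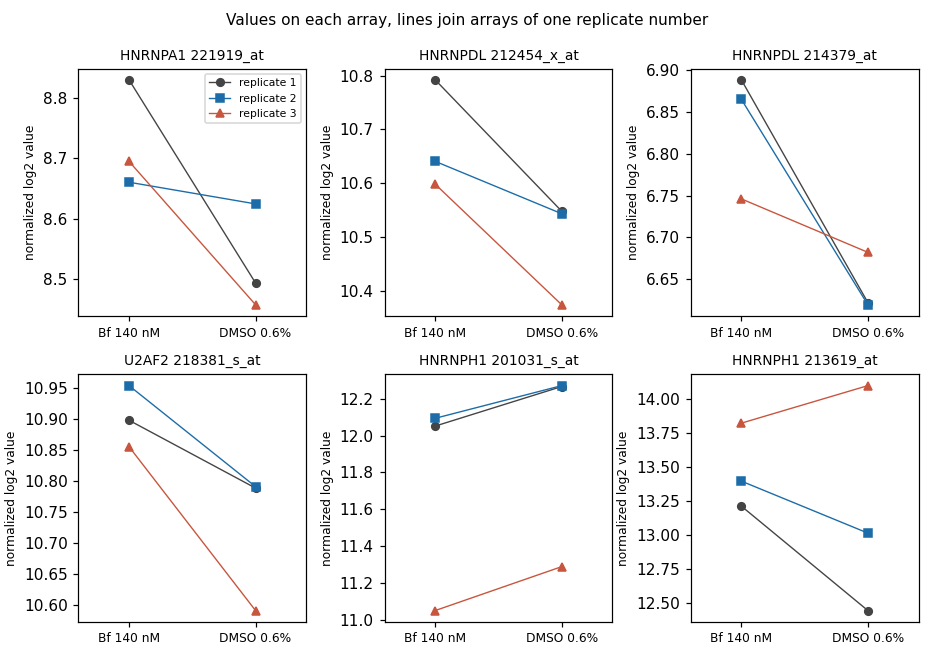
Normalized log2 values (y axis) on each Bf 140 nM and DMSO 0.6% array (x axis) of the 4 probe sets whose groups did not overlap and of HNRNPH1 201031_s_at and 213619_at, with a line joining the arrays of a replicate number. Replicate 3 lies apart in both HNRNPH1 panels, low in 201031_s_at and high in 213619_at, and the y axes differ between panels and do not start at 0.

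The SR and TRA2 proteins differed as little. Their 32 differences ran between -0.20 and 0.17 with a median of 0.02, and no group pair was without overlap. The most negative was 200893_at of TRA2B, which binds GA-rich enhancers. It read 12.68, 12.72 and 12.44 in Bf, against 12.51, 12.73 and 13.20 in DMSO. The difference was -0.20 (interval -0.66 to 0.26), with 0.17, -0.01 and -0.76 at the 3 numbers, and without both replicate 3 arrays it was 0.079. TRA2A, its paralogue, was positive in all 3 probe sets, at 0.11, 0.17 and 0.13. The 4 probe sets of SRSF1, the founding SR protein, differed by -0.02 to 0.05, and those of SRSF10 by 0.00 to 0.12.

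Differences were as small among the SF3A, SF3B, U2AF and PTBP factors. The 15 SF3A and SF3B probe sets ran between -0.11 and 0.15, the highest from SF3A3 203818_s_at. U2AF2 218381_s_at read 10.90, 10.95 and 10.86 in Bf, against 10.79, 10.79 and 10.59 in DMSO, which did not overlap and differed by 0.18 (interval -0.05 to 0.41). U2AF1 differed by 0.00. PTBP1 211270_x_at differed by -0.08 and PTBP2 by 0.18 (interval -0.33 to 0.69), and the 3 probe sets of PTBP3 lay within 0.04 of 0.

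Probe sets of the same gene were also compared directly, as the difference between 2 probe sets on an array. None of 110 pairs differed between Bf and DMSO at an adjusted p under 0.10 in limma, against 0 of 11661 pairs in all (0%). At an unadjusted p under 0.05 there were 0 of 110, against 0.0943%. Mean differences of both signs were found among the probe sets of 19 of 30 genes (63.3%), against 57.9% of all. No gene had a probe set higher in Bf at all 3 numbers and another lower at all 3, against 3.2% of all genes with several.

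That count of 0 rested on all 3 numbers being used. Without replicate 3 there were 6 such genes (20%, against 16% of all): HNRNPD, HNRNPDL, HNRNPH1, HNRNPR, SRSF1 and U2AF2. Without replicate 1 there were 3 (10%, against 17%), namely HNRNPC, SF3A1 and TRA2B. Without replicate 2 there were also 3 (10%, against 11.3%), namely HNRNPD, HNRNPK and SRSF7. No gene was in all of these lists.

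Taking the pair with the smallest p of each gene, HNRNPDL 201993_x_at and 212454_x_at came first, with a gap that was narrower in Bf by 0.18 (change -0.18, interval -0.42 to 0.07). The next genes in this order were HNRNPD, whose 205183_at and 213359_at had a change of -0.27 (-0.70 to 0.17), and SRSF7, whose 213649_at and 214141_x_at had 0.18 (-0.18 to 0.54). The first pairs of SRSF11, SRSF5, HNRNPH3, SF3B1 and HNRNPC followed, with changes of 0.13, 0.23, 0.11, 0.18 and -0.15, and intervals that all held 0. With the replicate block 3 of 110 pairs (2.73%) had an unadjusted p under 0.05, against 1.48% of all. HNRNPH1 201031_s_at less 213619_at changed by -0.50 (blocked interval -0.89 to -0.11). The gaps of U2AF2 218381_s_at and 214171_s_at to 218382_s_at changed by 0.33 (0.08 to 0.58) and 0.26 (0.02 to 0.50). None of the 3 passed after adjustment.

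In the HNRNPH1 pair the sign of 1 probe set turned at replicate 3. Here 213619_at read 13.22, 13.40 and 13.83 in Bf, against 12.45, 13.02 and 14.10 in DMSO. Bf exceeded DMSO by 0.77 and 0.38 at replicates 1 and 2 and was lower by 0.28 at replicate 3 (difference -0.28), while 201031_s_at was lower in Bf at each number. The spread between replicate numbers of 213619_at was wider than its difference between groups.

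Other splicing genes gave similar counts. From a list of 111, 93 genes were found with 194 probe sets, including snRNP proteins, helicases and kinases of SR proteins. None passed, their median difference was 0.01, and 1 had an unadjusted limma p under 0.05. This was PCBP2 213517_at, of a poly(C)-binding protein, with a difference of 0.28 (interval 0.02 to 0.53). DDX17, an RNA helicase, differed by 0.18 and 0.29 in a pair of probe sets, the second by 0.11 without DMSO replicate 3. The smallest p values on the other side belonged to EWSR1 209214_s_at at -0.29, SART3 209127_s_at at -0.12 and SNRNP70 213121_at at -0.14. EWSR1 and SART3 stood at -0.074 and -0.073 without DMSO replicate 3, SART3 also at -0.073 without Bf replicate 2, and SNRNP70 at -0.050 without Bf replicate 3.

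Most of these probe sets differed by replicate number. In limma, 67 of 105 probe sets (63.8%) differed among the 3 numbers at an adjusted p under 0.10, against 44.6% of all probe sets. Among probe sets above the median level the shares were 59 of 95 (62.1%) and 63%, and among the other splicing genes 131 of 194 passed (67.5%), so the share was not above that of bright probe sets in general. Replicate 3 was below the mean of replicates 1 and 2 in 46 of them (43.8% of 105, against 27.2% of all) and above it in 21 (20%, against 17.3%). By family, 29 of 49 hnRNP, 26 of 32 SR and TRA2, 6 of 15 SF3A and SF3B, 2 of 4 U2AF and 4 of 5 PTBP probe sets passed. Passing says that some number differed. SF3B5 221263_s_at, for example, passed with a shift of only -0.04 at replicate 3. The share was 19 of 35 among probe sets ending in _at, 33 of 48 in _s_at and 15 of 21 in _x_at, the last marking probes that may match other transcripts. Shares of all probe sets by ending were not computed. The _at probe sets were also dimmer, with a median of 9.85, against 11.42 for _s_at and 11.19 for _x_at. The part of ending or level was not tested.

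**Figure D4:**
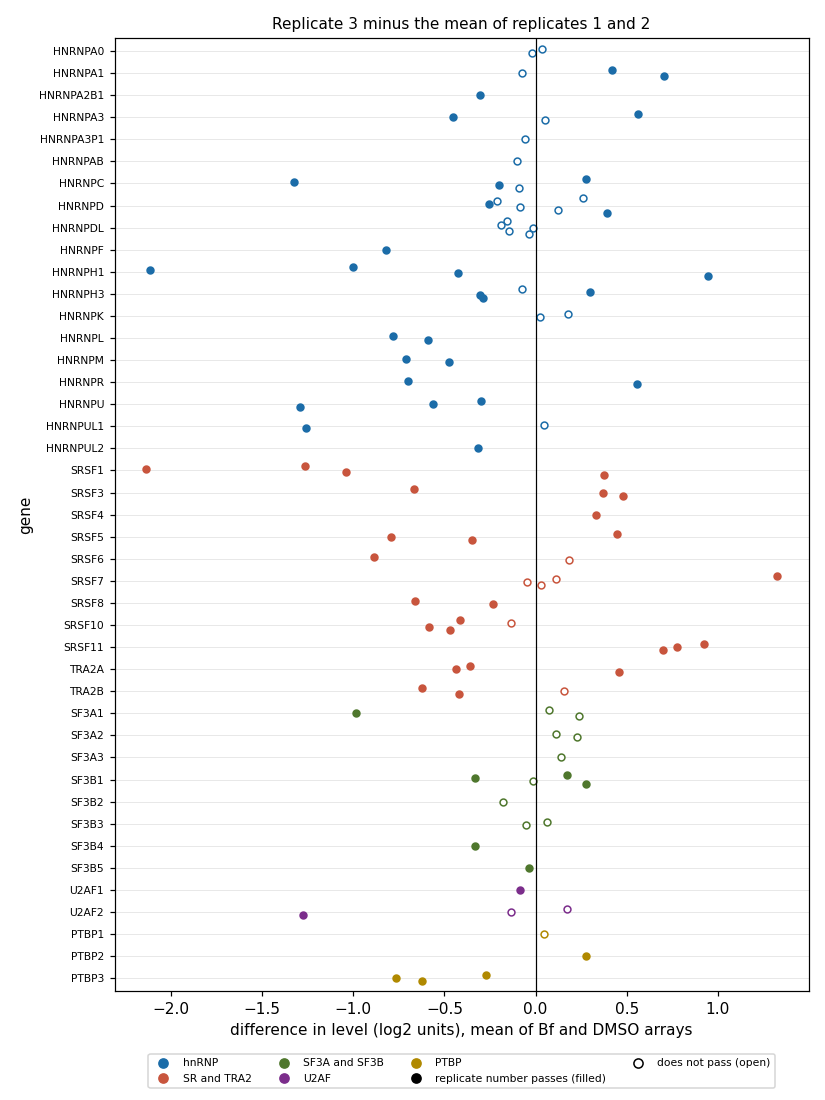
Level at replicate 3 minus the mean of replicates 1 and 2 (x axis, log2 units, Bf and DMSO arrays averaged) for each splicing factor probe set by gene (y axis), coloured by family and filled where the replicate number passed. Shifts run between -2.14 in SRSF1 and 1.32 in SRSF7, and genes such as HNRNPH1, SRSF1 and HNRNPR have filled points on both sides of 0.

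The shift differed within genes. Of 110 pairs, 66 (60%) passed the test of replicate number on their gap, against 49.3% of all pairs, and 23 of 30 genes (76.7%) had such a pair, against 60% of all genes with several probe sets. With only probe sets above the median level, 53 of 88 pairs (60.2%) passed, against 67.7% of all, and 21 of 28 genes (75%) had one, against 74.6%. In 11 of 30 genes (36.7%) a probe set that passed was lower at replicate 3 and another that passed was higher, against 17.8% of all genes with several. These were HNRNPA3, HNRNPC, HNRNPD, HNRNPH1, HNRNPH3, HNRNPR, SF3B1, SRSF1, SRSF3, SRSF5 and TRA2A. This count was defined after the values were seen. On quantile-normalized values it was 8 genes. With only probe sets above the median level it was 11 of 28 (39.3%), against 25.6% of all. Before that filter the splicing factor genes had 3.07 probe sets each on average, against 2.65 for all genes with several. A gene with more probe sets has more ways to enter these counts.

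SRSF1 was split between a bright probe set and the rest. Its 201742_x_at read 12.03, 11.52 and 9.79 in Bf replicates 1 to 3, against 11.88, 11.78 and 9.53 in DMSO, a shift of -2.14 at replicate 3. Its 201741_x_at and 208863_s_at fell with it, by 1.27 and 1.04 on the log2 scale. Its brightest probe set did not. For 211784_s_at the values were 12.63, 12.42 and 12.71 in Bf, against 12.36, 12.49 and 12.99 in DMSO, a shift of 0.37. The gap between 201742_x_at and 211784_s_at was -3.18 at replicate 3, against -0.54 and -0.81 at replicates 1 and 2 (limma adjusted p 3.62e-05 for the number).

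SRSF7 moved the other way and in 1 of its 4 probe sets. Its 201129_at read 10.67, 10.63 and 11.87 in Bf, against 10.58, 10.61 and 12.03 in DMSO, a shift of 1.32. The other probe sets shifted by -0.05 to 0.11 and did not pass. At replicate 3 the 201129_at level was 0.90 above that of 213649_at, against 0.57 and 0.38 below it at replicates 1 and 2 (gaps of -0.57 and -0.38). This was 1 of 4 pairs (3.64% of 110, against 4.91% of all) whose order turned on both replicate 3 arrays and on no other. The rest were in HNRNPC, with 2 pairs, and SF3B1.

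Other SR proteins split as well. SRSF3 202899_s_at shifted by -0.67, while 208672_s_at and 208673_s_at shifted by 0.37 and 0.48. SRSF5, which spanned 4.44 in level, had shifts of 0.45, -0.79 and -0.35. SRSF6 206108_s_at shifted by -0.89 and its 208804_s_at by 0.18, and the gap between them passed. SRSF11 was even in direction. Its 200685_at, 200686_s_at and 213742_at shifted by 0.92, 0.77 and 0.70, all passed, and no gap between them did, although their levels were 4.07 apart.

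**Figure D5:**
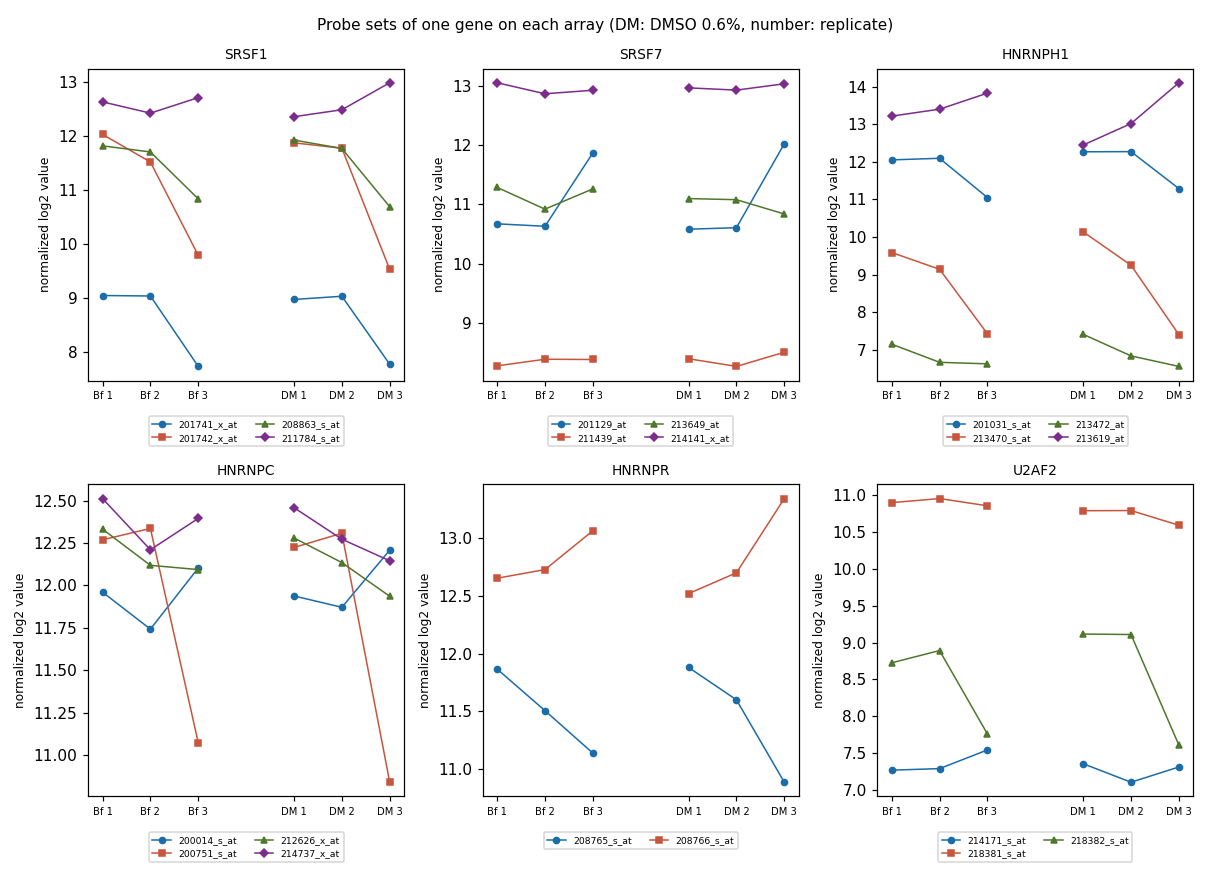
Normalized log2 values (y axis) of every probe set of 6 splicing factor genes on the Bf 140 nM and DMSO 0.6% arrays (x axis), numbered by replicate. In SRSF1, HNRNPH1 and HNRNPR some lines drop at replicate 3 and others climb, in both groups alike, and in HNRNPC and SRSF7 lines cross; y axes differ between panels and do not start at 0.

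Among hnRNP genes HNRNPH1 was split in the same manner. Its 213470_s_at read 9.59, 9.14 and 7.43 in Bf, against 10.14, 9.25 and 7.41 in DMSO, a shift of -2.11. The shift was -1.002 for 201031_s_at and -0.42 for 213472_at, but 0.94 for 213619_at, and all 6 gaps among the 4 passed. HNRNPC agreed closely in level, yet 200751_s_at read 12.27, 12.34 and 11.07 in Bf, against 12.22, 12.31 and 10.84 in DMSO. Its shift of -1.33 stood against 0.28 for 200014_s_at. The gap of 200014_s_at over 200751_s_at was 1.20 at replicate 3, against -0.30 and -0.51 at replicates 1 and 2.

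HNRNPR, a relative of SYNCRIP, had a pair that diverged in both groups. Its 208765_s_at read 11.87, 11.51 and 11.14 in Bf, against 11.88, 11.60 and 10.88 in DMSO. Its 208766_s_at read 12.65, 12.73 and 13.07 in Bf, against 12.52, 12.70 and 13.34 in DMSO. The gap between them widened to 2.19 log2 units at replicate 3 (-2.19), against 0.71 and 1.16 at replicates 1 and 2 (-0.71 and -1.16). HNRNPU had negative shifts in all 3 probe sets, of -1.29 in 216855_s_at, -0.56 in 200594_x_at and -0.30 in 200593_s_at. In 200593_s_at it was replicate 1 that stood apart, with a mean of 11.75, against 11.21 and 11.18 at replicates 2 and 3. HNRNPUL1 209675_s_at shifted by -1.26 and its 208713_at by 0.05. HNRNPDL was the exception among genes with many probe sets. None of its 5 passed, with shifts of -0.19 to -0.01, and none of its 10 gaps did.

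U2AF2 showed the split outside these families. Its 218382_s_at read 8.73, 8.89 and 7.76 in Bf, against 9.12, 9.11 and 7.61 in DMSO, a shift of -1.28. Its 214171_s_at and 218381_s_at shifted by 0.17 and -0.13 and did not pass. SF3A1 201357_s_at shifted by -0.98, while 201356_at and 216457_s_at shifted by 0.08 and 0.24. PTBP3 at replicate 3 was below the mean of replicates 1 and 2 in all 3 probe sets, by 0.27, 0.77 and 0.62. In the first, 207223_s_at, it was replicate 1 that stood apart, with a mean of 7.64, against 7.17 and 7.13 at replicates 2 and 3. For U2AF2 218382_s_at, SF3A1 201357_s_at and PTBP3 214697_s_at, both replicate 3 values lay below those of the other 4 arrays.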

How the data were processed

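The 6 arrays after 1 h of exposure were analysed, 3 a group. Per the methods, the authors read cell intensities with Affymetrix software and applied VSN in R 2.5.0. They deposited 1 column of normalized values for each array, read here as log2 values. The summary of probes into probe sets, and which arrays shared a normalization, are not given in the sources used here. The base is not stated, base 2 is an assumption, and every fold depends on it. No detection calls or level filter were used. Of 22277 probe sets, 62 controls were left out. Gene symbols were those of the platform annotation, 19064 probe sets having 1. The files state no build, so coordinates are left out, and no sequence is printed.

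Fits were made with limma 3.58.1 (R 4.3.3; lmFit, eBayes) over all 22215 probe sets, or over all 11661 pairs of probe sets of a gene as within-array differences, with Benjamini-Hochberg adjustment and a threshold of 0.10. Replicate number was tested by an F test beside treatment. The limma fits, the SAM calls and the pair differences were tested on simulated data. Those data had equal noise for all probe sets and, for treatment, no effect of replicate number. The counts by gene and the figures were not tested in this way. The members, lists and tests were chosen with earlier results of these data known. The naming rule took the probe sets and pairs with the smallest p, the genes with the widest level gaps, and the brightest and dimmest of each family. Further examples, such as SRSF10, TRA2A, HNRNPR, HNRNPUL1 and SF3A1, were chosen after their values were seen.

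Replicate numbers come from the sample titles. The sample descriptions hold another number, and it too is shared by the Bf and DMSO arrays of a replicate number. The correlation between the 2 arrays of a number, each as its deviation from the group mean, was 0.725, 0.783 and 0.880. The replicate numbers thus pair the samples by this check, and no source ties either number to a day or batch. Replicate 3 enters both group means and can raise the first and second of these values. The analysis without the block leads, since the methods of the study name no pairing. Its intervals are wider than those with the block. Blocked intervals are given as a median half-width and for the probe sets and pairs with an unadjusted blocked limma p under 0.05. P-values measure the spread between arrays. Per the methods, a fixed amount of total RNA was labelled for each sample, so the normalized levels are relative. Fewer cells and less RNA per cell can be neither seen nor told apart in them. The paper reports lower viability of the bilirubin-treated cells already at 1 h. Alternatives were the replicate block, other normalizations, a level filter, trend and robust eBayes, array weights, SAM, other thresholds, and leaving out arrays.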

Additional observations from a re-analysis of the deposited data

How the results depend on the processing

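The 0 of 105 probe sets and 0 of 110 pairs passing for Bf minus DMSO were found under each alternative run: the replicate block (0 and 0), quantile normalization, equal array medians for probe sets, a filter at the median level, trend and robust eBayes, array weights and SAM for probe sets, each probe set against the others of its gene for pairs, adjusted p thresholds of 0.05 and 0.20, each array left out, and both replicate 3 arrays left out, which was chosen after seeing the data. At the adjusted threshold the replicate block, run for these 2 counts and the named differences, changed no call. The number of probe sets passing for replicate number ran between 52 and 73, and of pairs between 52 and 73, against 67 and 66 as reported. Genes over 2 log2 units apart numbered 15 to 19 when levels were filtered, normalized anew or taken from either group. Genes with probe sets of opposite sign numbered 3 to 6 with a replicate number left out, against 0, by construction since fewer signs must match. Named differences kept their direction in 158 of 162 recomputed values. TRA2B 200893_at was 0.079 and the SF3B1 gap of 201070_x_at and 211185_s_at -0.024 without both replicate 3 arrays. HNRNPH3 210588_x_at ran between -0.18 and 0.0071 and the HNRNPC gap of 200014_s_at and 214737_x_at between -0.27 and 0.024 with each array left out. The cause was not tested. Precision was limited by 3 arrays a group.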
